A study of Homo sapiens with 8 samples.

Results

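The replication-dependent histone genes of chromosome 6 were described by 2 histone marks in SUM159 cells. Members were taken by symbol from GENCODE release 44, as protein-coding genes on chromosome 6 named H1-, H2AC, H2BC, H3C or H4C. This gave 55 of the 19970 protein-coding genes on chromosomes 1 to 22 and X. They encode 6 linker histones H1, 12 H2A, 15 H2B, 10 H3 and 12 H4. On hg38 they fell into 4 clusters separated by more than 200 kb, with 2, 32, 5 and 16 members, and the first and last starts were at 25726562 and 27893425. Between these starts lay 20 other protein-coding genes, and a further 15 replication histone genes lay on other chromosomes. The 20 include ENSG00000282988, which has the same start as the member H2AC7.

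Replication histone genes are copied in S phase, when newly made DNA has to be packed into nucleosomes. They lack introns in their usual form, and their messenger RNAs end in a stem-loop bound by SLBP instead of a poly(A) tail. Transcription takes place in nuclear histone locus bodies, where NPAT, a target of cyclin E and CDK2, gathers. H3K4me3, trimethylation of lysine 4 of histone H3, marks the starts of active genes, and H3K9me3, trimethylation of lysine 9, marks heterochromatin.

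The study asked how silencing of ZEB1, a transcription factor of the epithelial to mesenchymal transition, changes chromatin. SUM159, an established cell line from a triple-negative breast cancer, has mesenchymal features. Cells were transduced with pLV-KRAB, a lentiviral vector that expresses dCas9-KRAB (Cas9 without nuclease activity, joined to a repressor domain) and selected with puromycin. All gRNA cells also received 4 guides against the ZEB1 promoter, and No gRNA cells carried the same vector with no targeting guide. Native ChIP-seq, in which chromatin is not cross-linked, was done for H3K9me3 and H3K4me3 with 2 libraries per group and mark, 8 in all. The labels call these biological replicates and do not say whether they came from separate transductions, so their spread may be partly technical. RNA of the members was not analysed here.

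For each start (TSS, the annotated 5′ end of the gene), the share of bases under deposited peaks was computed, in the TSS ± 1 kb for H3K4me3 and in the TSS ± 10 kb for H3K9me3. Read counts are not part of the peak lists, which leaves the depth of each library unknown, and intervals for counting error could not be computed. They reach p of about 0.1 and cover 623 to 933 Mb per H3K4me3 library and 723 to 770 Mb per H3K9me3 library. Restricted to q ≤ 0.05, they cover 19.3 to 115 Mb and 97.6 to 238 Mb. Unless q is named, all deposited peaks were used. Values of the 4 libraries of a mark are given in the order All gRNA replicate 1, All gRNA replicate 2, No gRNA replicate 1 and No gRNA replicate 2.

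The file names of 2 H3K4me3 libraries, those labelled All gRNA replicate 2 and No gRNA replicate 1, give the other condition. At ZEB1 the H3K4me3 shares were 0, 100, 0 and 100%, which goes against the labels of these libraries. The H3K9me3 shares at ZEB1 were 79.4, 82.0, 4.57 and 1.33%, higher in both All gRNA libraries. H3K4me3 libraries are therefore named by their label only, and every H3K4me3 contrast below is one of labels. Of 8 mesenchymal marker genes, VIM, AXL, CAV1, FN1 and SNAI2 were fully covered by H3K4me3 in all 4 libraries, and CD44 was at 78.6 to 100%, TWIST1 at 16.1 to 100% and MSN at 45.0 to 66.1%. Of 8 luminal or epithelial genes none was fully covered in all 4 libraries. ESR1 was at 0 in all 4, PGR at 0 to 77.5% and GRHL2 at 0 to 68.1%. CDH1 was at 24.2 to 93.6%, EPCAM at 48.7 to 100%, GATA3 at 56.3 to 100%, FOXA1 at 67.9 to 100% and ESRP1 at 19.8 to 100%, so genes of the other cell type were partly covered as well.

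Member promoters shared short motifs that differed by histone class. RefSeq promoters (GRCh38.p14, 250 bases before to 50 after the start) were given for 50 of the 55 members, and all 50 were identical to hg38. Promoters of H4C1, H4C3, H2AC12, H3C11 and H3C12 were not matched. A set of 4 motifs was searched on both strands, namely the TATA box with the letters TATAAA, the box named for its letters CCAAT, the octamer ATTTGCAT bound by POU2F1, and the AC box of H1 genes, AAACACA. The sequences below are printed 5′ to 3′ with these motifs in capitals, and no marked motif overlaps another. The first pair compares the DNA between 2 divergent H2A and H2B starts, one pair known from testis and one from the H3K4me3-rich centre of the large cluster (hg38, plus strand, H2AC1 to H2BC1 at chr6:25726562-25726777 and H2AC7 to H2BC7 at chr6:26199293-26199516).
H2AC1 to H2BC1: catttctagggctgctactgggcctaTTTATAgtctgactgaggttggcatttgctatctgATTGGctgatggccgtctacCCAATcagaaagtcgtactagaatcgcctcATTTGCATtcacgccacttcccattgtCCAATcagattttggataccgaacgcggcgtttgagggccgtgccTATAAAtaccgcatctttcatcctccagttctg
H2AC7 to H2BC7: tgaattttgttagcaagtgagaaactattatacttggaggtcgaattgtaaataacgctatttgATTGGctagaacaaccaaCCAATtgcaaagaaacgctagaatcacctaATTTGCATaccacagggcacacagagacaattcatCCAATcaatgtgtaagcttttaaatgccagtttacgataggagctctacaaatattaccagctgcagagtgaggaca

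Both stretches held 1 octamer in the same orientation and 3 CCAAT boxes in the same orientations, 2 on the plus and 1 on the minus strand. The H2AC1/H2BC1 stretch also held a TATA box facing each gene, at positions 27 and 184 of its 216 bases, and the H2AC7/H2BC7 stretch of 224 bases held no TATAAA. G+C was 48.1% in the first and 37.9% in the second.

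The H1 and H4 promoters below show the searched motifs. H1-4 (chr6:26156079-26156378, plus strand) was fully covered by H3K4me3 in all 4 libraries. H1-6 (chr6:26108086-26108385), H4C7 (chr6:26246947-26247246) and H4C13 (chr6:27873485-27873784), all on the minus strand, were not. No fully covered H4 promoter is printed.
H1-4: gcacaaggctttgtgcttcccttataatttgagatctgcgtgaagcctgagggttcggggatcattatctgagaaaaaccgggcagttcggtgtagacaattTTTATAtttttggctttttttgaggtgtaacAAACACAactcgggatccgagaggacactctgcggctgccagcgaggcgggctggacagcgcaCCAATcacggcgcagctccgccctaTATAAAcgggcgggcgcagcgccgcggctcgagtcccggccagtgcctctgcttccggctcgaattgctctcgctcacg
H1-6: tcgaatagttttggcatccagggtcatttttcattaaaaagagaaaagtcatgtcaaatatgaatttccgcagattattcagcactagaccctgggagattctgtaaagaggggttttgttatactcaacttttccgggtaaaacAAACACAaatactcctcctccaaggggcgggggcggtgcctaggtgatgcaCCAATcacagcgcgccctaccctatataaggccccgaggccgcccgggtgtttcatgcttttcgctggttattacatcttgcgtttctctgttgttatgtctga
H4C7: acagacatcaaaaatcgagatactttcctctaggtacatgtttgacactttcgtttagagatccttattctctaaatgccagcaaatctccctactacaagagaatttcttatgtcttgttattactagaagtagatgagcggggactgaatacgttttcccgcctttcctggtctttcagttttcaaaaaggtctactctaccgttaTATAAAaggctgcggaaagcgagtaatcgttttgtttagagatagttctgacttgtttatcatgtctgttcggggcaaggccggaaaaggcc
H4C13: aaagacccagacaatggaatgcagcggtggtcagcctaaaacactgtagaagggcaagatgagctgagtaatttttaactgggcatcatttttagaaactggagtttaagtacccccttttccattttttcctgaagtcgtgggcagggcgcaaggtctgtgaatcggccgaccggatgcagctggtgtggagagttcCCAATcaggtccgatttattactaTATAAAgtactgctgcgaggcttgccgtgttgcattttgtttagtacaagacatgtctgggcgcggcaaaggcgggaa

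An AC box was present in 6 of 6 H1 promoters and in 4.26% of all 15315 RefSeq promoters of that length. The octamer was present in 9 of 11 H2A and 12 of 15 H2B promoters and in 1.70% of all promoters. CCAAT was found in every H1, H2A, H2B and H3 promoter given, against 3 of 10 H4 promoters and 36.6% of all. TATAAA was found in 33 of 50 members and 9.64% of all. Member promoters held a median of 10.5 CG dinucleotides and 42.3% G+C, against 22 and 63.0% over all promoters. RefSeq gives H3C4 the same promoter interval as H2AC7, 2007 bases from the GENCODE start of H3C4, so the 50 promoters are 49 distinct intervals, and the 1 octamer among the H3 promoters is that of H2AC7. The 5 members usually read in testis or at low level, defined below, held TATAAA in 4, CCAAT in 4 and the octamer in 2, against 29, 39 and 20 of the 45 others with a promoter. The AC box was held by 2 of the 5, both H1 genes, and by 4 of the 45. The median number of CG dinucleotides was 13 in the 5 and 9 in the 45, and median G+C was 47.3 and 42.3%. A match is a stretch of letters, not a bound site.

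**Figure D1:**
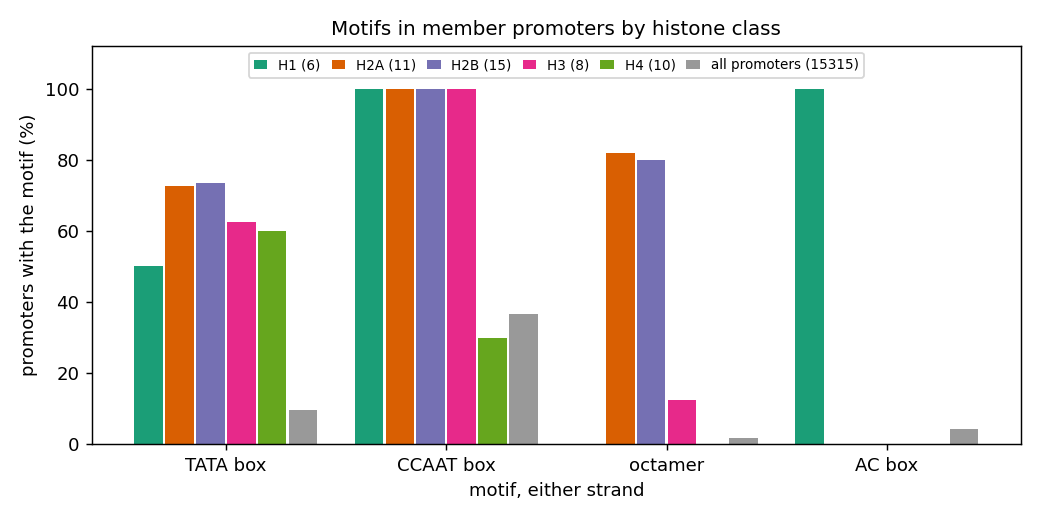
Share of promoters (%) holding each motif on either strand, for members by histone class (number of promoters in brackets) and for all RefSeq promoters (grey). The AC box was seen in 100% of H1 promoters and in no other member class, and the octamer in 81.8% of H2A and 80.0% of H2B promoters.

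At the other end of the gene, the stem-loop was sought in a stretch of 150 bases in all that spans the end of the canonical transcript. The letters were TTTTCAGAG or TTTTCAGGG, the second added after the first had been searched. The 16 bases around them were the same in 31 members, which included 10 of 12 H2A, 9 of 15 H2B and 8 of 10 H3 genes. Another form was shared by 9 of 12 H4 genes. In the 2 lines below the capitals are the whole 16 bases.
H1, H2A, H2B and H3 form: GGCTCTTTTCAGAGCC
H4 form: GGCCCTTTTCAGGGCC

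H2AC15 and H2AC11 each carried a further form. In 13 members neither set of letters lay in the searched stretch, among them H1-1 and H1-6, and a stem-loop farther off would have been missed. Over all protein-coding genes 0.556% held such letters. The encoded proteins were most alike for H3, with 10 genes and 1 protein, and for H4, with 11 of 12 genes encoding the same 103 residues and H4C7 encoding 98 residues at 80.6% identity to it. The testis proteins stood further from their class, at 93.1% identity for H2AC1, 85.0% for H2BC1 and 53.5% for H1-6.

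Because members resemble each other, reads can be hard to place. The share of 61-base words (the read length) of the TSS ± 1 kb that recur elsewhere in the genome had a median of 0.464%, was 0 for 24 members and exceeded 5% for 8. It was highest at H4C11 (19.6%) and H4C12 (19.5%), followed by H2AC13 and H2BC13 (16.9% each), H2AC14 and H2BC14 (15.7% each), H2AC12 (12.4%) and H2BC12 (11.4%). Values of these 8 genes are less certain than the rest, since it was not stated how such reads were treated.

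Most members were fully covered by H3K4me3 in all 4 libraries, and none of the members known from testis was. Among the latter only H2AC1 and H2BC1, whose windows largely coincide, were low in each library. The other testis member ranged from 24.7 to 100%. The median H3K4me3 share of the members was 100% in each library. Over all promoters it was 96.5, 100, 91.5 and 100%, so a full share is common with all deposited peaks. Of the 55 members 36 were fully covered in all 4 libraries, against 31.4% of all promoters. In the 2 libraries whose file names match their labels, 40 members were fully covered, against 42.9% of all promoters. With peaks at q ≤ 0.05 the libraries differed more. Such a peak touched 35, 4, 31 and 43 of the members, and 33.2, 11.5, 9.26 and 52.6% of all promoters. The share of members was therefore above that of all promoters in 3 libraries and below it in the library labelled All gRNA replicate 2, which has the least length under q ≤ 0.05 peaks.

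**Figure D2:**
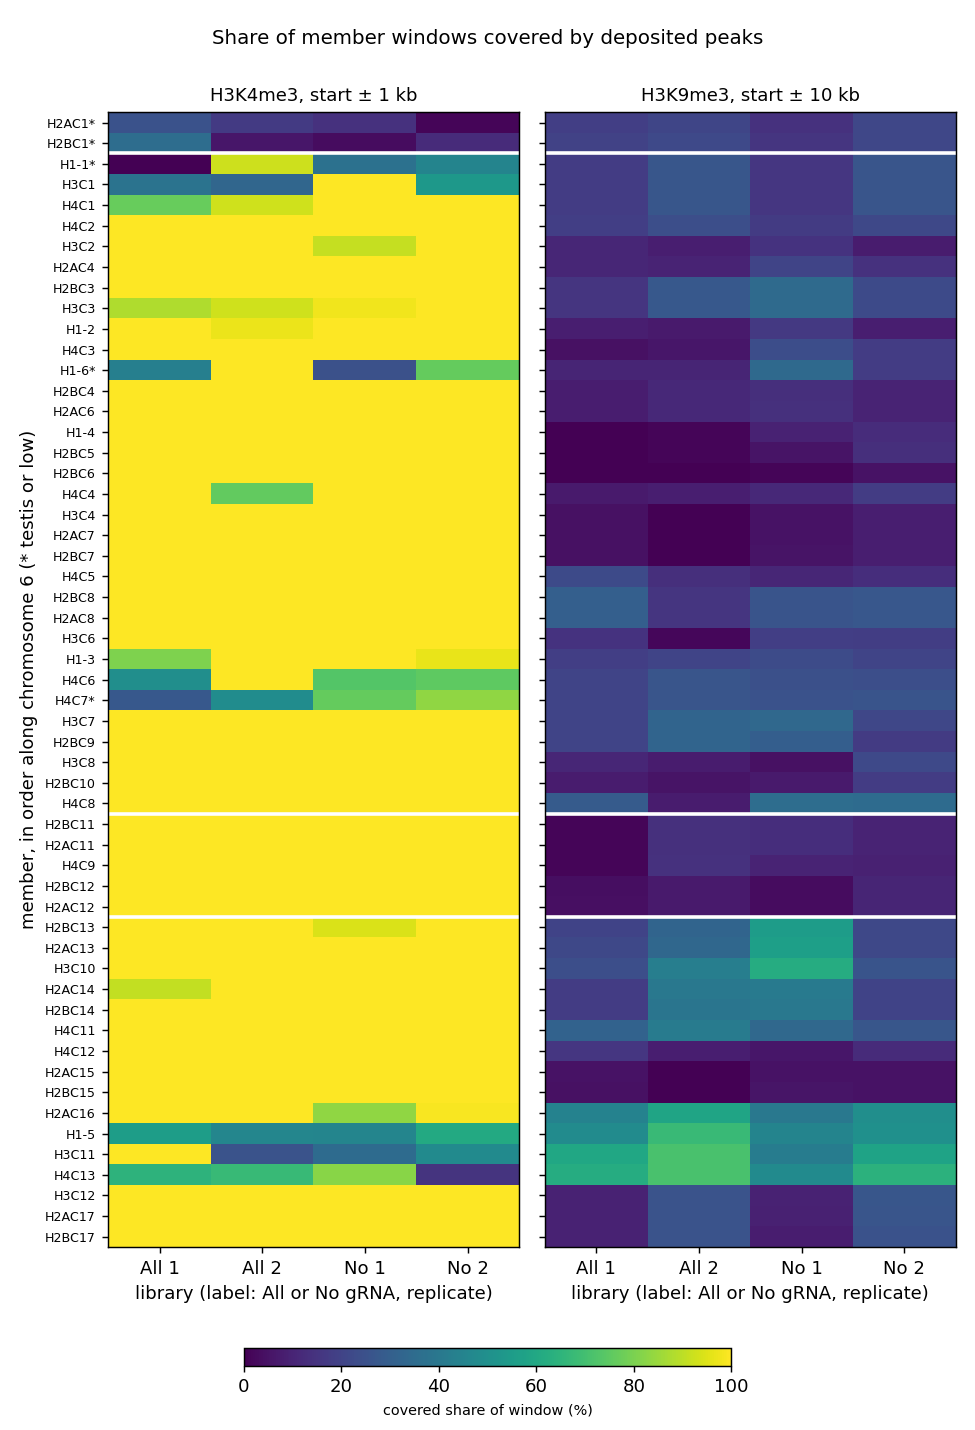
Share of each member's window under deposited peaks (color, 0 to 100%), for H3K4me3 in the TSS ± 1 kb (left) and H3K9me3 in the TSS ± 10 kb (right), with members in chromosome order, 4 libraries per mark and white lines between clusters. H3K4me3 is full over most members and low at H2AC1 and H2BC1, and H3K9me3 is highest from H2AC16 to H4C13.

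A peak at q ≤ 0.05 was present in at least 3 libraries at 24 members, against 13.6% of all promoters, and in all 4 at 4 members (3.07% of all). These were H2BC6, H3C4, H2AC7 and H2BC7, of which the last 3 lie side by side under 1 run in each library and are not separate observations. At H3C4 and H2AC7 the best peak had a fold enrichment of 3.54, 2.90, 2.96 and 3.72 over the background of the peak caller. The start used for H2BC6 (ENSG00000274290.3) lies 11702 bases before that of its canonical transcript, where the H3K4me3 share was 100, 30.2, 100 and 55.1%, so its full coverage belongs to the upstream start. The starts of H3C6, H3C12 and H4C8 also have a canonical alternative, and there H3K4me3 was again full in all 4 libraries.

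No q ≤ 0.05 peak was found in any library at 9 members (45.2% of all promoters). These were H2AC1, H2BC1 and H1-6 of the testis, and H4C3, H4C6, H2AC16, H1-5, H3C11 and H4C13. Of these, H4C3 was fully covered by weaker peaks in all 4 libraries, with a lowest q of 0.142.

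Members were then separated by what is known of their use, not by these data. H2AC1, H2BC1 and H1-6 encode the testis forms of H2A, H2B and H1, H1-1 and H4C7 are low in most cell types, and the remaining 50 are called usually active. Usually active members had a median H3K4me3 share of 100% in each library, and the other 5 had medians of 27.7, 48.8, 24.7 and 44.9%. The difference was 63.5 percentage points on average over the 4 libraries, and 63.7 in the 2 whose file names match their labels. It was above 0 in each library. A q ≤ 0.05 peak touched 34, 4, 30 and 42 of the 50 usually active members and 1, 0, 1 and 1 of the 5 others.

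H2AC1 (ENSG00000164508.6) and H2BC1 (ENSG00000146047.7) start 215 bases apart on opposite strands and form a cluster of their own. The H3K4me3 share at H2AC1 was 25.2, 16.8, 14.1 and 1.50%, a mean of 14.4% ± 9.81 (SD, n = 4 libraries). At H2BC1 it was 35.9, 6.10, 3.35 and 12.2%. These were the lowest means among the members, and the windows of the pair largely coincide, so they are not separate observations.

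H1-6 (ENSG00000187475.6), the testis linker histone, had H3K4me3 shares of 43.1, 100, 24.7 and 76.2%, with a best q of 0.199 in any library. H1-1 (ENSG00000124610.5), a linker histone of few cell types, had 0, 92.2, 37.1 and 44.9%. Both spread so widely between libraries that no level can be assigned, and in both the library labelled All gRNA replicate 2 was highest.

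H4C7 (ENSG00000275663.2), which encodes the shorter H4 protein, had shares of 27.7, 48.8, 76.2 and 83.2%. Its start lay at the edge of a run that also covered the starts of H3C7 and H2BC9, which were full in all 4 libraries. The 2 libraries labelled All gRNA were lower than the 2 labelled No gRNA, an order that rests on labels in doubt.

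The 12 pairs of divergent starts at most 1 kb apart lay 170 to 979 bases apart. In each pair a single run of H3K4me3 reached the TSS ± 1 kb of both genes in all 4 libraries. The windows of such a pair overlap, so this is nearly fixed by how the pairs were chosen and is no separate result. In 9 pairs both windows were full in all 4 libraries. H2BC17 is counted among them with H3C12 and again with H2AC17, and paired windows overlap, so the 9 are not all separate observations. H2BC13/H2AC13 and H2AC14/H2BC14 were full in 3 libraries each, and H2AC1/H2BC1 in none.

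H3K4me3 runs over the members were broader than over all promoters, but not broader than over some like genes. A run is a stretch of touching peaks, and its width was taken for the widest run that reached the TSS ± 1 kb. Median widths were 9353, 11202, 13736 and 11644 bases over members, against 4126, 4841, 4219 and 5552 bases over all promoters. Over the 15 replication histone genes on other chromosomes they were 10365, 15331, 13573 and 10670 bases. The 8 mesenchymal marker genes had 11458, 12614, 13720.5 and 13524 bases. Breadth was therefore not particular to the members, though the 20 other genes between them had narrower medians of 4143 to 6230 bases. One run can cover several starts, so the 55 members lay under only 26, 26, 21 and 24 distinct runs. The widest, 59617 bases in the library labelled No gRNA replicate 1 (chr6:26177363-26236979, lowest q 0.0152), covered 9 starts from H4C4 to H1-3. The widest run labelled No gRNA replicate 2 was 35360 bases (chr6:27806582-27841941, lowest q 0.00103), over 9 starts from H2BC13 to H2BC15. In the 2 libraries labelled All gRNA the widest were 18053 and 19829 bases, over H4C11, H4C12, H2AC15 and H2BC15. Of all H3K4me3 runs, 0.0200 to 0.228% were at least as wide as the widest over members in the same library. The total length under peaks was also greatest, 933 Mb, in the library with the widest run, and its part in the width was not tested.

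**Figure D3:**
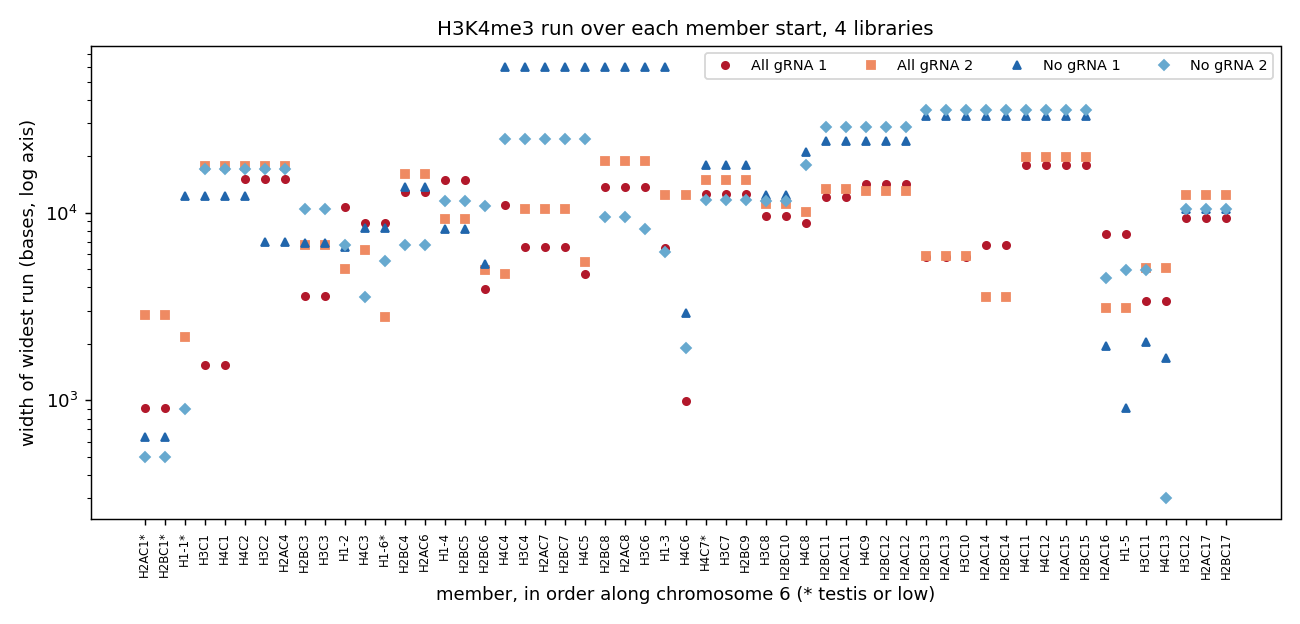
Width in bases (log axis) of the widest H3K4me3 run at each member start in 4 libraries; points at one height in neighboring members are the same run, and H1-1 has no run in the library labelled All gRNA replicate 1. Widths reach 59617 bases from H4C4 to H1-3 and fall to 303 bases at H4C13.

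H4C11, H4C12, H2AC15 and H2BC15 shared the greatest mean width, 26510 bases ± 8832 (SD, n = 4 libraries), and H4C11 and H4C12 are also the members with the most recurring words. The narrowest mean widths were 1226 bases ± 1094 at H2AC1 and H2BC1 and 2608 bases ± 2064 at H4C13. Both sets were picked by mean width over these same libraries, so the lack of overlap between them in each library is no separate result.

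H3K9me3 over the TSS ± 10 kb was at a low to middle level and was highest at 4 neighboring genes within the last cluster. The median share of the members was 15.4, 15.3, 15.8 and 20.0%, against 3.59, 4.78, 6.63 and 7.61% over all promoters. The 20 other genes between the first and last member had medians of 15.5 to 16.8%, and the 15 replication histone genes on other chromosomes 0 to 8.79%. H3K9me3 peaks at q ≤ 0.05 differed between libraries. Such a peak touched 4, 0, 0 and 22 of the 55 windows (7.27, 0, 0 and 40%), against 6.39, 5.76, 3.53 and 10.3% of all promoters. No member had one in 3 or more libraries (3.86% of all promoters did). At 29 members none was found in any library, against 85.7% of all promoters.

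H4C13 (ENSG00000275126.2) had the highest H3K9me3 shares, 61.9, 71.4, 47.8 and 64.1%, a mean of 61.3% ± 9.85 (SD, n = 4 libraries). H3C11 (ENSG00000275379.2) had 59.7, 71.5, 41.9 and 58.2%, H1-5 (ENSG00000184357.5) had 48.3, 67.8, 45.3 and 50.2%, and H2AC16 (ENSG00000276903.2) had 44.5, 58.6, 40 and 49.5%. These 4 genes, a core H4, H3 and H2A gene and a linker histone, stand side by side between 27865317 and 27873534, and the same H3K9me3 peaks reach all their windows. They were the only members with a mean of 40% or more, against 9.20% of all promoters.

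At 3 of the 4 H3K4me3 was partial. H1-5 had H3K4me3 shares of 55.7, 46.1, 45.5 and 60.9%, and H4C13 had 64.6, 67.3, 82.3 and 15.1%. H3C11 had 100, 25.5, 35.1 and 47.8%, and H2AC16 had 100, 100, 83.2 and 98.9%. None of the 4 had an H3K4me3 peak at q ≤ 0.05. All 4 were placed among the usually active members by what is known of them, so the division by known use and the division by these marks were not the same.

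Members on either side differed from these 4. H2AC15 and H2BC15, before them, had H3K9me3 shares of 0 to 5.80%, and H2BC17, after them, 7.88 to 25.7%, with full H3K4me3 in all 4 libraries. The other lowest H3K9me3 means were at H2BC6 (1.61%), and at H2AC7 and H3C4 (4.39% each), which are 3 of the 4 members with an H3K4me3 peak at q ≤ 0.05 in every library. The starts of H2AC7 and H3C4 lie 2007 bases apart, so their TSS ± 10 kb windows largely coincide and their H3K9me3 values are not separate observations. At H3C10 the libraries spread from 24.1 to 61.9%, so its mean of 38.7% ± 17.6 (SD, n = 4 libraries) rested on 1 No gRNA library.

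**Figure D4:**
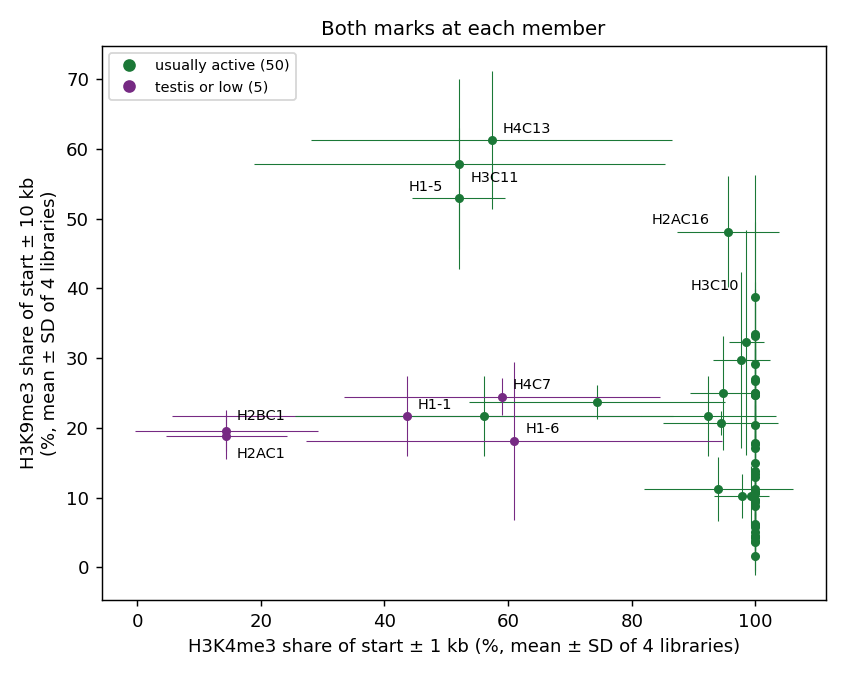
Each member's mean H3K4me3 share of the TSS ± 1 kb (x axis) and mean H3K9me3 share of the TSS ± 10 kb (y axis) with SD over 4 libraries, usually active members in green and testis or low members in purple. H4C13, H3C11 and H1-5 have the highest H3K9me3 at 52.0 to 57.3% H3K4me3, and H2AC1 and H2BC1 have the lowest H3K4me3 at 18.8 and 19.6% H3K9me3.

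In the TSS ± 10 kb the 2 sets of members differed little in H3K9me3. Usually active members had medians of 12.7, 14.0, 15.8 and 19.1%, and testis or low members 18.5, 22.1, 15.8 and 21.3%. The difference widened close to the start, in a window of TSS ± 1 kb that was chosen after the profile around starts had been seen. There the medians were 0% in every library for usually active members and for all promoters, and 68.3, 83.9, 61.5 and 97.2% for testis or low members. At least 50% of the window was covered in 3, 4, 4 and 5 of the 5 testis or low members and in 8, 11, 9 and 8 of the 50 usually active ones. Windows of divergent pairs, such as H2AC1 and H2BC1 at 215 bases apart, largely coincide, so these genes are not all separate observations. Over all promoters it was 11.1, 13.2, 10.3 and 13.2%.

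In that window H2AC1 had H3K9me3 shares of 93.5, 90.1, 57.4 and 97.2%, and H4C7 had 68.3, 74.2, 65.6 and 70.8%. H1-1 had 24.2, 100, 15.3 and 100%, and H1-6 had 25.3, 16.4, 100 and 100%, so these 2 were not stable between libraries. No peak over the H2AC1 or H2BC1 window reached q ≤ 0.05 in any library, with a best q of 0.0693. Shares of at least 50% in all 4 libraries were found at 10 members, against 5.47% of all promoters. These were H2AC1, H2BC1 and H4C7, and the usually active H3C1, H4C6, H2AC14, H2BC14, H2AC16, H3C11 and H4C13. The windows of H2AC1 and H2BC1 largely coincide, as do those of H2AC14 and H2BC14, so the 10 are not all separate observations. Of the 10, H2AC1, H2BC1, H4C7 and H4C13 were fully covered by H3K4me3 in no library, a combination found at 3.80% of all promoters. At H2BC14 both marks were present, with H3K4me3 full in all 4 libraries and H3K9me3 at 82.6 to 100% of the TSS ± 1 kb, and 15.7% of its words recur elsewhere. No H3K9me3 at all was found in the TSS ± 1 kb in any library at 23 members, all of them usually active, and at 49.9% of all promoters.

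**Figure D5:**
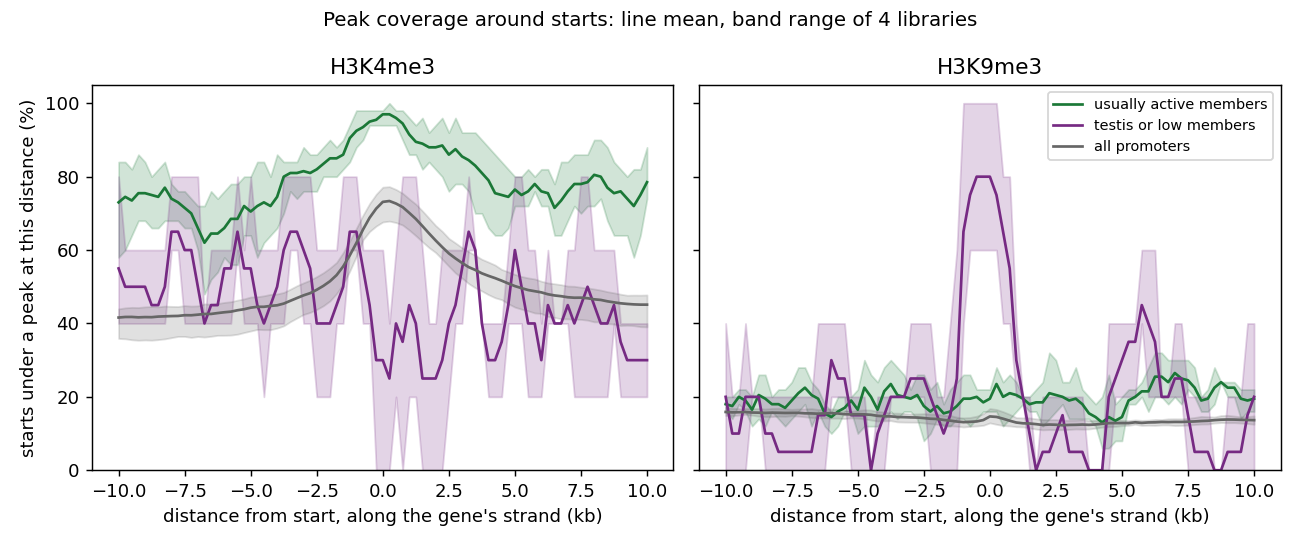
Share of starts (%) under a peak at each distance from the start (kb, along the gene's strand), for 50 usually active members, 5 testis or low members and all 19970 promoters; lines are means and bands the range of 4 libraries. At the start 94.0 to 98.0% of usually active members lie under H3K4me3 and 60 to 100% of testis or low members under H3K9me3, and 1 testis or low member is a step of 20.0%.

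H3K4me3 was also denser around members than between them. In 10-kb windows of the span from the first to the last member, the 29 windows with a member start had median H3K4me3 shares of 83.9, 83.2, 89.7 and 86.2%, and the 189 without one had 50.3, 53.0, 40.2 and 54.0%. H3K9me3 medians were 9.16, 15.6, 17.4 and 16% with a member and 17.8, 14.8, 19.2 and 15.5% without, with no shared direction over libraries. By class, the H3K9me3 median averaged over 4 libraries was 13.9% ± 2.94 for H2A, 13.1% ± 3.80 for H2B, 20.2% ± 5.02 for H3, 20.5% ± 1.59 for H4 and 17.1% ± 2.75 for H1 (SD over libraries). H1, H3 and H4 were each above H2A and H2B in each of the 4 libraries. Taken over libraries, the range of H4 also lay above those of H2A and H2B. The ranges of H1 and of H3 overlapped those of every other class. By cluster it was 19.2% ± 3.08, 14.4% ± 3.14, 8.84% ± 5.22 and 30.2% ± 9.59 along the chromosome.

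Between the labelled groups few members were called for either mark. A promoter was called when every library of one group exceeded every library of the other by 25 percentage points or more, a rule without a p-value. For a single promoter the exact two-sided permutation test over the 6 labellings of the 4 libraries cannot give less than 0.33, so none could pass a threshold of 0.05. For H3K4me3, 0 of 55 members were called higher in the libraries labelled All gRNA, where 1.78% of all promoters were, and 1 was called lower, where 2.21% were. The 1 member was H4C7, at 38.3% ± 14.9 against 79.7% ± 4.95 (SD, n = 2 each), a difference of -41.5 points (exact permutation p = 0.33). This call rests on the labels. Arranged by file name, the H4C7 values would be 27.7 and 76.2% against 48.8 and 83.2%, which overlap. With windows of TSS ± 2 kb or a gap of 50 points H4C7 was not called. Counted without a minimum gap, the libraries of the 2 labels did not overlap at 2 members higher in All gRNA and 4 lower. The higher ones were 3.64% of members, against 6.33% of all promoters, and the lower ones 7.27%, against 7.6%. Neither share of members was above that of all promoters.

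With H3K4me3 peaks at q ≤ 0.05, 6 members were called lower in the libraries labelled All gRNA, against 1.62% of all promoters, and 0 higher. They were H3C1, H4C1, H4C2 and H4C4, and the divergent pair H2AC14 and H2BC14. Shares were 0 in both libraries labelled All gRNA and 100% in both labelled No gRNA at 5 of them, and H3C1 had 0, 0, 100 and 53.5%. Arranged by file name, the values would be 0 and 100% against 0 and 100% at the 5, and 0 and 100% against 0 and 53.5% at H3C1, so all 6 calls depend on the labels. These 6 genes lay under only a few runs, and H3C1, H4C1 and H4C2 were reached by the same run in 3 libraries. With all deposited peaks they were covered by H3K4me3 in the libraries labelled All gRNA too, at 32.8 to 100%. The library labelled All gRNA replicate 2 has 19.3 Mb under q ≤ 0.05 peaks, against 46.0 to 115 Mb in the other 3, and its part in these calls was not tested.

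For H3K9me3, where the labels and file names agree, 0 of 55 members were called in either direction, against 0.18% of all promoters higher and 0.0351% lower in All gRNA. The mean share was lower in All gRNA at 40 members and higher at 15, with a median difference of -1.97 points over members and -0.92 over all promoters. The libraries did not overlap at 14 members lower in All gRNA and 2 higher. The lower ones were 25.5% of members, near the 24.4% of all promoters. The higher ones were 3.64% of members, below the 11% of all promoters. The largest of these differences without overlap was at H4C8, 18.2% ± 14.9 against 35.3% ± 0.633, followed by H1-6, 10.3% ± 0.106 against 26.0% ± 11.8 (SD, n = 2 each, exact permutation p = 0.33 each). In the other direction H3C11 stood at 65.6% ± 8.31 against 50% ± 11.5 (SD, n = 2 each, exact permutation p = 0.33).

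Genes that act with the histone loci gave a reference. H3K4me3 was full in all 4 libraries at 12 of 18 genes of the locus body and of histone messenger RNA processing, NPAT, SLBP, HINFP and ZNF473 among them, and none of the 18 was called for either mark. Of 11 replacement histone genes, which are expressed outside S phase, 6 were full in all 4 libraries and none was called. Of the 15 replication histone genes on other chromosomes 11 were full, and H2BC12L was at 0 in all 4 libraries. The median H3K9me3 share of the TSS ± 10 kb was 0 to 2.5% for the 18 genes and 1.38 to 7.04% for the replacement histones, below the 15.3 to 20.0% of the members in every library.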

How the data were processed

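Members and gene lists were chosen with earlier results of these data known. Groups and replicate numbers came from the sample labels.

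Per the methods of the study, bowtie2 placed fastp-trimmed read pairs of 61 bases on hg38. Duplicates and reads in regions prone to artefacts were dropped, and MACS2 called broad peaks in each library on its own, extending fragments to 200 bases. The submitters' processing notes instead name bcl2fastq 2.17, Trimmomatic 0.33, Bowtie 1.1.2 and MACS2 2.1.0. Use of the input as control was not given in the sources used here. Each deposited peak carries a score and a fold enrichment ratio. It also has p-value and q-value columns on a −log10 scale, written by the authors' peak caller. Peaks came unpooled and without read numbers, which leaves depth unknown. A low threshold (p up to about 0.1) keeps many weak regions, which raises shares and widths at every promoter.

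Here peaks were merged within a library (Python 3.11.15, numpy 2.4.6, scipy 1.17.1) and intersected with windows around GENCODE release 44 starts. The steps were tested on simulated data. Named genes were all testis or low members, all called members, the 5 highest and 5 lowest members per mark by mean share, the 3 widest and 3 narrowest runs, the first member of each class, and ZEB1. Genes named beyond that rule, such as those under one run or in a count, were chosen after their values were seen. Alternatives covered the q threshold, equal covered length, canonical starts, other windows, a gap of 50 points, joined gaps, each library left out and a replicate block. The TSS ± 1 kb window for H3K9me3 and the omission of the 2 H3K4me3 libraries with conflicting names were added after the data were seen. List summaries were given without a test.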

Additional observations from a re-analysis of the deposited data

How the results depend on the processing

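Over 11 results and 130 alternative values, 93 stayed within the spread of replicates (or within 1.5 times a count), 37 moved and 0 reversed. A reversal was a change of sign, which counts, median shares and widths cannot show. The H3K4me3 difference between labels was 0 in the main setting and could not show it either. A reversal was therefore possible only for the H3K9me3 difference between groups and the differences between usually active and testis or low members. The q threshold moved most. At q ≤ 0.05 and q ≤ 0.01 the H3K4me3 median share of members, averaged over libraries, was 75 and 25%, its difference between labels -50 points at both, and the median width 6590 and 2617 bases. These averages do not hold in each library, since a q ≤ 0.05 peak touched 35, 4, 31 and 43 of the 55 members. All H3K9me3 medians and differences were 0 at both. Members called lower for H3K4me3 numbered 6 and 3. On average over libraries, usually active members exceeded testis or low members by 25 points of H3K4me3 with q ≤ 0.01. With a TSS ± 500 bases window it was 79.3. That window gave 2 lower calls, TSS ± 2 kb gave 0 and a gap of 50 points 0, and equal covered length gave 1 higher call. Joining gaps up to 1 kb widened the median run to 14842 bases.

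For H3K9me3, TSS ± 1, 5 and 25 kb gave a difference between usually active and testis or low members of -77.7, -11.2 and -0.13 points, against -4.00 at ± 10 kb. The member median was 0.362% at ± 1 kb and 14.1% at ± 5 kb, the difference between groups -4.77 points at ± 5 kb, with 1 higher call there and 1 lower call at ± 1 kb. Equal covered length and canonical starts kept all medians and differences within the replicate spread. Leaving out 1 library did so too, yet the H3K9me3 difference between groups ran from -4.67 (without No gRNA replicate 1) to -0.497 points (without No gRNA replicate 2), against -2.58, and that between usually active and testis or low members from -5.33 (without No gRNA replicate 1) to -2.66 (without All gRNA replicate 2), so the size of neither is settled.

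Leaving out 1 library gave 0 to 1 members called higher and 1 to 2 called lower for H3K4me3 (1 higher without All gRNA replicate 1, All gRNA replicate 2 or No gRNA replicate 1, and 2 lower without All gRNA replicate 2 or No gRNA replicate 2), and 0 to 1 lower for H3K9me3 (1 without All gRNA replicate 1). Without the 2 H3K4me3 libraries of conflicting name, 1 library against 1, 2 members were called higher and 4 lower. With replicate number as a block, 0 members were called higher and 1 lower for H3K4me3 and 0 for H3K9me3, and the H3K9me3 difference was -2.58 points, all as without the block. Deviations of same-numbered libraries from their group means correlated at 0.015 for H3K4me3 and 0.027 for H3K9me3 over all promoters. A shift common to all promoters does not show in this correlation, and the H3K4me3 group means rest on labels in doubt. Whether same-numbered libraries share a batch was not tested further. The cause of these shifts was not tested beyond what each setting changes. Depth is unknown, and a missing peak is not proof of a missing mark.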

Other observations

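Of the 20 other protein-coding genes between the first and the last member, 7 were fully covered by H3K4me3 in the TSS ± 1 kb in all 4 libraries. Among these 7, ENSG00000282988 has the same start as the member H2AC7 (26199293), so its window is that of a member. Near the testis pair H2AC1 and H2BC1, the transporter genes SLC17A4, SLC17A1, SLC17A3 and SLC17A2 had no H3K4me3 peak at q ≤ 0.05 in any library. SLC17A3 had shares of 17.8, 0, 46.5 and 78.5%, and it was the one gene of the 20 called, lower in the libraries labelled All gRNA. HFE, a regulator of iron uptake, lies between the members of the large cluster and had full H3K4me3 in all 4 libraries, with a peak at q ≤ 0.05 in each.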
